A study of Mus musculus with 24 samples.

Results

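The genes described here are 33 genes of glycolysis and of the response to low oxygen, given as a list of gene symbols and matched to the 55401 genes of the count table, where each had 1 row with reads (a second row of Aldoa held 0 reads and was not used). They comprise 20 glycolysis genes (4 transporters of glucose or lactate, 14 enzymes and 2 enzymes that set the level of an activator of glycolysis) and 13 other genes of the hypoxia-inducible factor (HIF) system (the factor subunit Hif1a, 2 of its prolyl hydroxylases, Egln1 and Egln3, and 10 target genes). All 33 passed the filter on low counts and entered the test. Messenger RNA was measured in macrophages that had been grown from the bone marrow of C57BL/6J wild-type mice in medium with 15% medium conditioned by L929 cells, a mouse fibroblast line, and plated on day 6 in medium without it. The cells were given 30 µM S14, a sphingomyelin with a fatty acid chain of 14 carbons, or 100 ng/mL lipopolysaccharide (LPS), a component of the outer bacterial membrane, or were left untreated. They were harvested after 18 h or 3 h, with 4 libraries in each of the 6 groups. The comparisons ask which genes either stimulus changed at each time.

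Glycolysis breaks glucose down to pyruvate in the cytosol, and lactate dehydrogenase turns pyruvate into lactate, which monocarboxylate transporters carry out of the cell. HIF is a transcription factor whose alpha subunit is marked for destruction by prolyl hydroxylases when oxygen is present and accumulates when it is scarce. It raises the transcription of most glycolytic enzymes, of glucose transporters and of genes for blood vessel growth, mitochondrial turnover and collagen modification. In macrophages, LPS is known to raise HIF and glycolysis with oxygen present.

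Reads came from the 3' end of each transcript, so a level is given as CPM, the reads of a gene relative to its library's total after scaling by the trimmed mean of M values (TMM), and levels are compared between groups and not between genes. Library totals ran from 3334182 to 6350251 reads, which limits the precision of members with few reads, such as Pgk1 with 1 to 12 reads in the untreated libraries at 18 h. The macrophage markers Adgre1, Csf1r, Cd68, Itgam, Mertk, Fcgr1, Cd14 and Lyz2 summed at 18 h to 32100 to 33200 CPM in S14 libraries, 16000 to 24700 CPM in LPS libraries and 31700 to 45800 CPM in untreated libraries, and at 3 h to 19600 to 22100 CPM in all groups. Lyz2 alone ran from 7460 to 37200 CPM over all libraries, and every other macrophage marker stayed at or below 2870 CPM. The 6 neutrophil markers summed at 18 h to 2.47 to 9.09 CPM in S14 libraries, 40.7 to 50.4 CPM in LPS libraries and 1.74 to 4.64 CPM in untreated libraries. Over all libraries S100a8 reached 48.6 CPM and S100a9 17.9 CPM, with Ly6g at most at 0.218, Mpo at 0.971, Elane at 0.158 and Camp at 1.31 CPM. At 3 h they summed to 5.59 to 11.4 CPM in S14 libraries, 7.53 to 34.6 CPM in LPS libraries and 2.64 to 3.83 CPM in untreated libraries. Mitochondrial genes took 1.03% to 1.27% of reads in S14 libraries at 18 h, 0.54% to 0.834% in LPS libraries and 1.48% to 1.67% in untreated libraries. The part of these shifts in the results below was not tested. Sums were at most 17.3 CPM for T cells (Cd4 at up to 16.1 CPM, Cd3g at 0) and 3.89 CPM for fibroblasts. Untreated library 4 at 18 h stood apart, with the fewest genes detected (13405, against 14212 to 15505 in the other libraries) and the fewest spike-in reads (705, against 870 to 2588), so values on the spike-in scale are also given without it where they changed direction. In bulk RNA, fewer cells of a type and less RNA per cell cannot be told apart. The series gives n = 4 for the mice, but no label says which libraries came from which mouse, so p-values measure the spread between these libraries.

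A fold change by TMM is relative to the typical gene of a library. Scaling to the spike-in reads instead moved the log2 fold changes of all genes by a median of -0.97 for S14 and -0.64 for LPS at 18 h, and of 0.11 for S14 and 0.34 for LPS at 3 h. Without untreated library 4 the shifts at 18 h were -0.48 for S14 and -0.16 for LPS. How much spike-in RNA went into each culture's RNA is not stated in the labels. Where a member's change called on either scale differs in direction on the spike-in scale, that value stands beside it, at 18 h also without untreated library 4. A change without such a value kept its direction there but may have lost its call, at 3 h as well as at 18 h. Unless the spike-in scale is named, calls are by TMM. Genes outside the list are given by TMM alone.

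The promoters of these genes were compared for the letters ACGTG and GCGTG, which form the core of the HIF binding site, on either strand. In RefSeq's table for GRCm38.p6, 32 members had an entry and Ndrg1 had none. Within the 250 bases before the annotated start, ACGTG occurred in 22 of 42 member promoters (52.4%), against 16.6% of all 32851 promoters, and GCGTG in 54.8% of them, against 28.2% of all promoters. Either one occurred in 81.0% of member promoters, against 38.6% of all, and the median GC content was 64.0%, against 52.4%. The glycolysis promoters held either one in 23 of 28 cases and those of the other HIF genes in 11 of 14. Where the letters CACGTG occur, ACGTG overlaps itself on the 2 strands and was counted once on each. A match is a description of the letters and not of binding. Promoters are printed for the 5 members with the highest log2 fold change with LPS at 18 h, and for Mif, which rose with both stimuli at 18 h by TMM and is, with Tpi1 and Gpi1, among the 3 members with neither run of letters. They read 5′ to 3′ on the strand of the gene, and capitals mark both runs of letters on either strand.
Pfkfb3, 1 of 2 starts, chr2:11502091-11502340, minus strand: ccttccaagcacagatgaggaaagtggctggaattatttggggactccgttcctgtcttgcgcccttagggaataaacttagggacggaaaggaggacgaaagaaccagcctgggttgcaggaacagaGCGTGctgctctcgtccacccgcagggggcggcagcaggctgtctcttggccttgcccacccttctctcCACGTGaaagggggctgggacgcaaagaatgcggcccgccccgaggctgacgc
Slc16a3, chr11:120948817-120949066, plus strand: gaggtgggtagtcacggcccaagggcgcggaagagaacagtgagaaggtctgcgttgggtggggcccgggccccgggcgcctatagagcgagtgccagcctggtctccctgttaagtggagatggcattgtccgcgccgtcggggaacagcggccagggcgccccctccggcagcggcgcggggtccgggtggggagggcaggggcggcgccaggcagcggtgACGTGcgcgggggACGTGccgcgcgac
Egln3, chr12:54203875-54204124, minus strand: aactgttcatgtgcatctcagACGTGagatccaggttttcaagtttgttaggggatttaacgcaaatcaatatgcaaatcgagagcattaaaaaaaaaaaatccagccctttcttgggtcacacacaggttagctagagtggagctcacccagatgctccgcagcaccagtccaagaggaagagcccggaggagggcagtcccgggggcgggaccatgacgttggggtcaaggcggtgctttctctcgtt
Slc2a1, chr4:119108495-119108744, plus strand: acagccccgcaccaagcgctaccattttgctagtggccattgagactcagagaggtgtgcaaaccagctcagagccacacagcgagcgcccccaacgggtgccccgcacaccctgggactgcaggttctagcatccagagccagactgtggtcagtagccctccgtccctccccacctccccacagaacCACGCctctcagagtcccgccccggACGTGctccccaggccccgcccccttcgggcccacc
Ankrd37, chr8:45999851-46000100, minus strand: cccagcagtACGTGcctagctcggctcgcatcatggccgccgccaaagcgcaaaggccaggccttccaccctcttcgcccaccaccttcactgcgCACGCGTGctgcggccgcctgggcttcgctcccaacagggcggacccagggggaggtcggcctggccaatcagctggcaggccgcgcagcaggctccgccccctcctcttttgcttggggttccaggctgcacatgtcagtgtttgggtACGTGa
Mif, chr10:75860278-75860527, minus strand: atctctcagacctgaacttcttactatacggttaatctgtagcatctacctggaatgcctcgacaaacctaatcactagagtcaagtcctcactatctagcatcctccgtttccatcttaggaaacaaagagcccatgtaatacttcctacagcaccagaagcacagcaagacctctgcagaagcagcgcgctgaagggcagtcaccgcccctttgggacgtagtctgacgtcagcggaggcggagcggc
In GENCODE M21 the windows of Pfkfb3 (gene on chromosome 2, 11471433 to 11554077), Slc16a3 (chromosome 11, 120948480 to 120960868) and Ankrd37 (chromosome 8, 45996902 to 46005707) lie wholly inside the annotated genes. The first 5 sequences hold from 1 to 4 matches each, and the Mif sequence holds none.

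LPS raised nearly the whole list at 18 h, while at 3 h members changed in both directions. With LPS at 18 h, 29 of 33 members rose and 1 fell (90.9% called, against 55.6% of all 11717 genes tested, of which 27.3% rose and 28.3% fell), and the median log2 fold change was 1.72, against -0.040 for all genes. With LPS at 3 h, 13 members rose and 10 fell (69.7%, against 55.5% of all genes, 25.3% higher and 30.2% lower), with a median of -0.0995, against -0.111 for all genes. On the spike-in scale the LPS counts were 22 higher and 2 lower at 18 h (25 and 1 without untreated library 4) and 11 higher and 3 lower at 3 h. Calls are those with an adjusted p under 0.05 by the quasi-likelihood test of edgeR. S14 changed fewer members. At 3 h it raised 8 of 33 and lowered 0 (24.2%, against 15.2% of all genes, 9.05% higher and 6.2% lower), with a median of 0.14, against -0.026, and on the spike-in scale 3 rose. At 18 h it raised 18 and lowered 1 (57.6%, against 24.3% of all genes, 12.6% higher and 11.6% lower), with a median of 0.39, against -0.017, whereas on the spike-in scale it raised 0 and lowered 11, and without untreated library 4 on that scale it raised 0 and lowered 2.

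**Figure D1:**
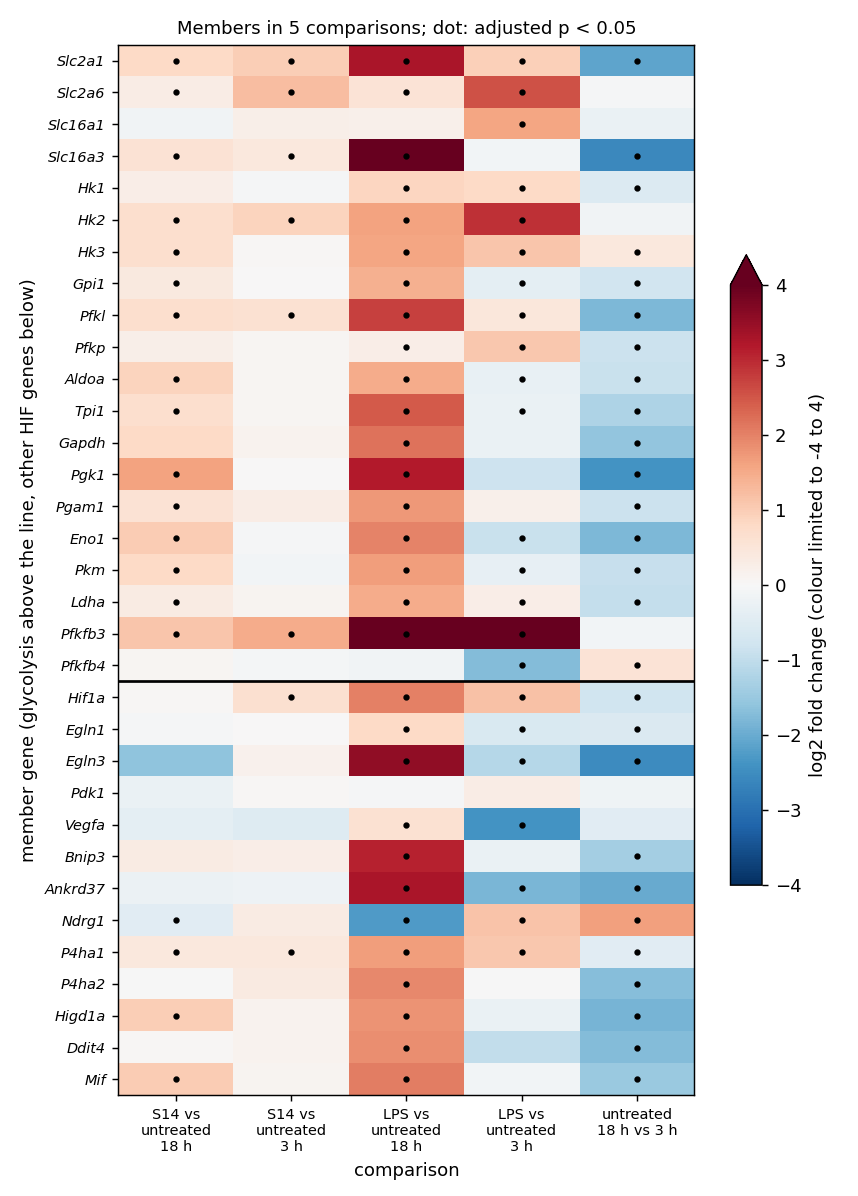
Colour gives the log2 fold change by TMM of each of the 33 members (rows) in 5 comparisons (columns), and a dot marks an adjusted p under 0.05. At 18 h the LPS column holds 29 called members in red and the S14 column 18, against 22 and 0 on the spike-in scale (25 and 0 without untreated library 4), and the column of untreated cells over time holds 24 in blue, against 9 on that scale (15 without that library).

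With S14 at 18 h most glycolysis genes rose by TMM and most of the other HIF genes were not called. Of the 20 glycolysis genes 15 rose and 0 fell (median log2 fold change 0.67), whereas of the 13 other HIF genes 3 rose and 1 fell (median -0.031). By TMM, the S14 mean at 18 h exceeded the untreated 3 h mean for Slc2a6, Hk2, Hk3, Aldoa and Pfkfb3. For the others of these 15 glycolysis genes it lay below. Pkm averaged 1702 CPM with S14 at 18 h, against 982 and 1864 CPM in untreated libraries at 18 h and 3 h. On the spike-in scale 0 glycolysis genes rose and 5 fell (median -0.30), and 0 other HIF genes rose and 6 fell (median -0.92). On that scale without untreated library 4, 0 glycolysis genes rose and 0 fell (median 0.13), and 0 other HIF genes rose and 2 fell (median -0.52). Without that library the TMM counts were 14 higher and 0 lower for glycolysis, and 3 higher and 1 lower for the other HIF genes. With LPS at 18 h both sets rose, with 18 of 20 glycolysis genes higher and 0 lower (median 1.64) and 11 of 13 other HIF genes higher and 1 lower (median 1.87). With LPS at 3 h 10 glycolysis genes rose and 6 fell (median 0.23), and 3 other HIF genes rose and 4 fell (median -0.26). With S14 at 3 h the counts were 6 higher and 0 lower for glycolysis (median 0.093), and 2 higher and 0 lower for the other HIF genes (median 0.16). The difference between the sets was not tested.

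**Figure D2:**
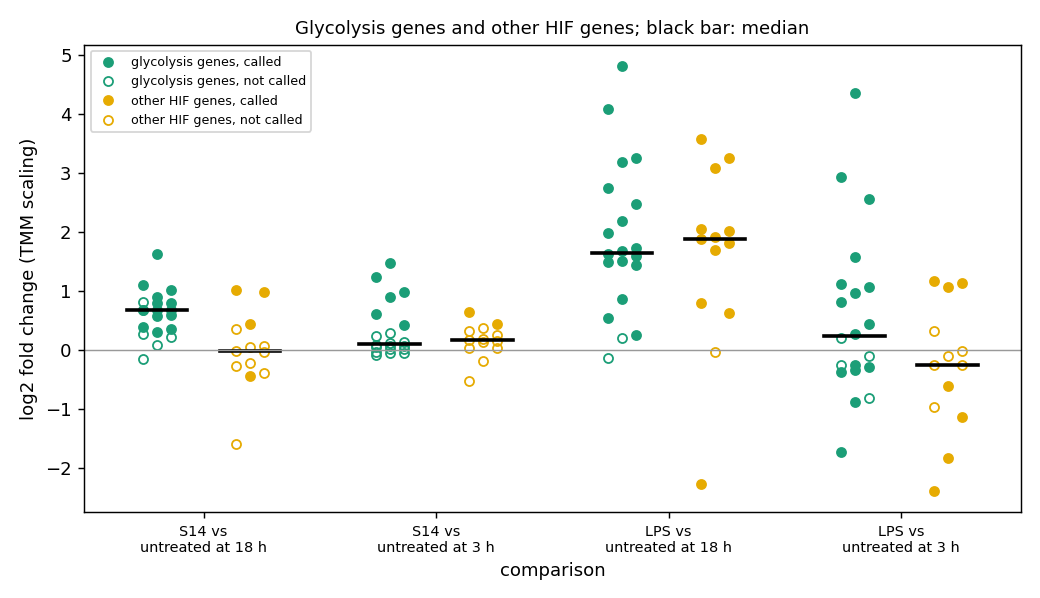
Each point is the log2 fold change by TMM (vertical axis) of 1 member in 1 of 4 comparisons with untreated cells (horizontal axis), filled where the adjusted p was under 0.05, with glycolysis genes in green, other HIF genes in yellow and the median as a black bar. With S14 at 18 h the glycolysis median lies at 0.67 and that of the other HIF genes at -0.031, and on the spike-in scale these medians were -0.30 and -0.92, or 0.13 and -0.52 without untreated library 4.

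By TMM S14 raised 3 of the 4 transporters (Slc2a1, Slc2a6 and Slc16a3) at 3 h and at 18 h. At 18 h all 3 had values below 0 on the spike-in scale (-0.15, -0.72 and -0.30), or 0.32, -0.15 and -0.0033 without untreated library 4. Slc2a1 encodes the widespread glucose transporter of the plasma membrane. At 18 h Slc2a1 stood at 30.9, 30.1, 39.0 and 39.7 CPM in S14 libraries, 202, 148, 194 and 221 CPM in LPS libraries and 23.6, 22.8, 15.4 and 19.3 CPM in untreated libraries. At 3 h it stood at 151, 156, 180.0 and 201 CPM in S14 libraries, 159.8, 147, 181 and 186 CPM in LPS libraries and 74.4, 78.8, 98.6 and 97.03 CPM in untreated libraries. Every treated library lay above every untreated library of its time. S14 raised it at 3 h (log2 fold change 0.98 ± 0.13, adjusted p = 1.13e-07; the value after ± is the standard error) and by TMM at 18 h (0.79 ± 0.15, adjusted p = 0.000108, -0.15 on the spike-in scale and 0.32 on it without untreated library 4). The log2 fold change with LPS was larger at 18 h (3.25 ± 0.14, adjusted p = 5.37e-21) than at 3 h (0.95 ± 0.13, adjusted p = 4.22e-08). Its LPS means were 192 CPM at 18 h and 169 CPM at 3 h, and its untreated means 20.3 CPM and 87.2 CPM. S14 and LPS libraries overlapped at 3 h and not at 18 h.

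Slc2a6 encodes a hexose transporter of macrophage lysosomes. Its 18 h levels were 135, 117, 137 and 109 CPM in S14 libraries, 169, 143, 138 and 139 CPM in LPS libraries and 112.3, 104, 83.3 and 106 CPM in untreated libraries. Its 3 h levels were 231, 252, 239 and 271 CPM in S14 libraries, 586, 606, 620.0 and 655 CPM in LPS libraries and 116, 102, 95.7 and 109.5 CPM in untreated libraries. The early values set the stimuli apart with no overlap, LPS highest and S14 between, while the S14 and untreated ranges overlapped at 18 h. With S14 the change was larger at 3 h (1.24 ± 0.093, adjusted p = 3.91e-14) than at 18 h (0.29 ± 0.093, adjusted p = 0.0163, -0.72 on the spike-in scale and -0.15 on it without untreated library 4), and the difference between the times was itself called (-0.94, adjusted p = 8.45e-07). LPS likewise raised it more at 3 h (2.54 ± 0.095, adjusted p = 8.99e-26) than, by TMM, at 18 h (0.54 ± 0.093, adjusted p = 3.88e-06, -0.16 on the spike-in scale and 0.41 on it without untreated library 4). The S14 call at 18 h was lost without untreated library 3 or S14 library 1 or 3 (adjusted p from 0.0696 to 0.107), or with only the groups compared in the fit (adjusted p = 0.0777).

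Slc16a3 encodes the monocarboxylate transporter that exports lactate from glycolytic cells. At 18 h Slc16a3 read 49.2, 49.4, 41.7 and 51.9 CPM in S14 libraries, 599, 489, 568 and 531 CPM in LPS libraries and 35.2, 36.4, 33.1 and 24.7 CPM in untreated libraries. At 3 h it read 234, 257, 253 and 292 CPM in S14 libraries, 168, 175, 177 and 195 CPM in LPS libraries and 179, 193, 175 and 228 CPM in untreated libraries. LPS libraries were far above the others at 18 h and within the untreated range or just below it at 3 h, while S14 libraries lay above untreated ones at both times. LPS raised it at 18 h (4.08 ± 0.11, adjusted p = 2.88e-30) and did not change it by the test at 3 h (-0.11 ± 0.10, adjusted p = 0.339). S14 raised it at 3 h (0.42 ± 0.10, adjusted p = 0.000966) and, by TMM, at 18 h (0.57 ± 0.11, adjusted p = 0.000129, -0.30 on the spike-in scale and -0.0033 on it without untreated library 4).

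Slc16a1, the other monocarboxylate transporter on the list, ran the other way in time. At 18 h Slc16a1 was at 7.18, 6.59, 6.65 and 5.84 CPM in S14 libraries, 7.03, 7.55, 7.39 and 11.6 CPM in LPS libraries and 4.84, 9.33, 6.71 and 8.23 CPM in untreated libraries. At 3 h it was at 10.1, 12.2, 14.5 and 5.43 CPM in S14 libraries, 28.7, 27.9, 27.2 and 22.1 CPM in LPS libraries and 9.65, 9.46, 5.50 and 11.0 CPM in untreated libraries. Only the LPS libraries at 3 h stood clear of the untreated ones (1.57 ± 0.25, adjusted p = 5.34e-07). The other comparisons missed the threshold, with LPS at 18 h (0.20 ± 0.26, adjusted p = 0.529) and with S14 at 18 h (-0.15 ± 0.26, adjusted p = 0.728) and 3 h (0.24 ± 0.26, adjusted p = 0.645).

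The hexokinases, which trap glucose in the cell as glucose phosphate, differed in timing. Hk2, the inducible form, had 18 h levels of 59.4, 53.9, 62.9 and 46.9 CPM in S14 libraries, 103, 89.3, 108 and 129 CPM in LPS libraries and 44.3, 39.4, 32.99 and 23.5 CPM in untreated libraries. Its 3 h levels were 67.2, 67.5, 76.9 and 76.1 CPM in S14 libraries, 247, 322, 284 and 329.7 CPM in LPS libraries and 34.6, 41.0, 37.9 and 42.1 CPM in untreated libraries. Treated and untreated libraries did not overlap at either time. LPS raised Hk2 more at 3 h (2.93 ± 0.14, adjusted p = 1.73e-20) than at 18 h (1.62 ± 0.13, adjusted p = 5.49e-13), and the difference between the times was called (-1.31, adjusted p = 3.12e-07). It rose with S14 at 3 h (0.89 ± 0.14, adjusted p = 4.53e-06) and by TMM at 18 h (0.67 ± 0.14, adjusted p = 0.000283, -0.17 on the spike-in scale and 0.053 on it without untreated library 4).

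Hk3, the form found in myeloid cells, had 18 h levels of 204, 208, 231 and 221 CPM in S14 libraries, 430.0, 495, 353 and 349 CPM in LPS libraries and 143, 131, 122 and 147 CPM in untreated libraries. At 3 h Hk3 was at 100.0, 100.0, 111 and 106 CPM in S14 libraries, 218, 229, 225 and 203 CPM in LPS libraries and 89.9, 108, 92.0 and 114 CPM in untreated libraries. At 18 h the 3 groups did not overlap, LPS highest, and at 3 h the S14 and untreated libraries did. LPS raised it at both times (1.58 ± 0.095, adjusted p = 2.71e-18 at 18 h, 1.118 ± 0.10, adjusted p = 2.58e-13 at 3 h). S14 raised it by TMM at 18 h (0.67 ± 0.094, adjusted p = 5.1e-07, -0.36 on the spike-in scale and 0.24 on it without untreated library 4), and its value at 3 h missed the threshold (0.049 ± 0.10, adjusted p = 0.83). Hk1, the constitutive form, averaged 84.9 ± 4.77 CPM in S14 libraries, 128 ± 3.11 CPM in LPS libraries and 70.9 ± 18.9 CPM in untreated libraries at 18 h (SD, n = 4). At 3 h the means of Hk1 were 101 ± 4.70 CPM in S14 libraries, 183 ± 12.6 CPM in LPS libraries and 104 ± 6.33 CPM in untreated libraries. It rose with LPS at 18 h (0.86 ± 0.11, adjusted p = 1.28e-08) and at 3 h (0.81 ± 0.11, adjusted p = 3.67e-08).

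Of the enzymes between hexokinase and the triose phosphates, Gpi1 (glucose phosphate isomerase) had 18 h levels of 217, 211, 244 and 241 CPM in S14 libraries, 511, 437, 469.5 and 468 CPM in LPS libraries and 188, 196, 165 and 149.8 CPM in untreated libraries. Its 3 h levels were 288, 302, 278 and 315 CPM in S14 libraries, 212, 233, 226 and 235 CPM in LPS libraries and 303, 308, 293 and 275 CPM in untreated libraries. LPS libraries were the highest group at 18 h and the lowest at 3 h, with no overlap with untreated libraries at either time. LPS raised Gpi1 at 18 h (1.43 ± 0.082, adjusted p = 6.24e-19) and lowered it at 3 h by TMM (-0.38 ± 0.082, adjusted p = 0.000122). S14 raised it by TMM at 18 h (0.38 ± 0.082, adjusted p = 0.000387, -0.55 on the spike-in scale and -0.14 on it without untreated library 4), and its value at 3 h missed the threshold (0.0050 ± 0.081, adjusted p = 0.982).

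Pfkl and Pfkp are the liver and platelet forms of phosphofructokinase, the committed step of glycolysis. Pfkl stood at 18 h at 25.9, 28.4, 35.0 and 30.5 CPM in S14 libraries, 129.99, 87.6, 131 and 149 CPM in LPS libraries and 19.7, 16.4, 20.6 and 18.0 CPM in untreated libraries. At 3 h Pfkl stood at 77.3, 105, 97.4 and 113 CPM in S14 libraries, 82.2, 76.9, 85.5 and 107 CPM in LPS libraries and 67.8, 54.3, 64.3 and 73.0 CPM in untreated libraries. The treated libraries lay above the untreated ones at both times. LPS raised Pfkl at 18 h (2.73 ± 0.15, adjusted p = 3.02e-19) and less at 3 h (0.44 ± 0.14, adjusted p = 0.00534), and S14 raised it at 3 h (0.60 ± 0.13, adjusted p = 0.00078) and by TMM at 18 h (0.68 ± 0.15, adjusted p = 0.000969, -0.29 on the spike-in scale and 0.17 on it without untreated library 4). Pfkp stood at 18 h at 77.7, 83.2, 95.5 and 83.5 CPM in S14 libraries, 83.6, 90.6, 90.0 and 84.5 CPM in LPS libraries and 73.9, 87.3, 77.0 and 53.0 CPM in untreated libraries. At 3 h Pfkp stood at 136, 148, 136 and 134 CPM in S14 libraries, 273, 305, 277 and 251 CPM in LPS libraries and 124, 138, 147 and 120.0 CPM in untreated libraries. Here only the LPS libraries at 3 h were clear of the others (1.06 ± 0.10, adjusted p = 2.59e-12), and the groups overlapped at 18 h. The log2 fold change of Pfkp with S14 at 18 h was 0.22 ± 0.10, adjusted p = 0.123, -0.65 on the spike-in scale and -0.38 on it without untreated library 4. With LPS at 18 h it was 0.26 ± 0.10, adjusted p = 0.0344, -0.28 on the spike-in scale and -0.010 on it without untreated library 4. That LPS call was lost without untreated library 4 (0.13, adjusted p = 0.224), without LPS library 2 (adjusted p = 0.0712) or 3 (adjusted p = 0.0722) and with only the groups compared in the fit (adjusted p = 0.169). The last bases of Pfkp match Pitrm1, which overlaps it on the opposite strand and had a log2 fold change of -0.86 with LPS at 18 h and 0.50 at 3 h.

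Aldoa, which encodes aldolase, had 18 h levels of 1116, 1125, 1281 and 1327 CPM in S14 libraries, 1914, 1856, 1986 and 1641 CPM in LPS libraries and 738, 678, 685 and 521 CPM in untreated libraries. Its 3 h levels were 1289, 1353, 1160.3 and 1266 CPM in S14 libraries, 885, 995, 997 and 1045 CPM in LPS libraries and 1229, 1199, 1167 and 1219 CPM in untreated libraries. The order at 18 h was LPS, S14, untreated with no overlap, and at 3 h the LPS libraries were the lowest. LPS raised Aldoa at 18 h (1.497 ± 0.085, adjusted p = 5.03e-19) and lowered it at 3 h by TMM (-0.30 ± 0.084, adjusted p = 0.00269, 0.033 on the spike-in scale). By TMM S14 raised it at 18 h (0.89 ± 0.084, adjusted p = 5.1e-11, -0.021 on the spike-in scale and 0.32 on it without untreated library 4), and its value at 3 h missed the threshold (0.074 ± 0.083, adjusted p = 0.664).

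Tpi1, triose phosphate isomerase, read at 18 h 189, 186, 211 and 192 CPM in S14 libraries, 728, 643, 683 and 641 CPM in LPS libraries and 126, 139.9, 125 and 96.97 CPM in untreated libraries. At 3 h Tpi1 read 316, 295, 268 and 327 CPM in S14 libraries, 202, 253, 247 and 258 CPM in LPS libraries and 316, 297, 261 and 279 CPM in untreated libraries. The pattern was that of Aldoa, with LPS above S14 above untreated libraries at 18 h and LPS lowest at 3 h. LPS raised it at 18 h (2.46 ± 0.10, adjusted p = 9.11e-25) and lowered it at 3 h by TMM (-0.27 ± 0.092, adjusted p = 0.0131, 0.047 on the spike-in scale), a call that was lost without untreated library 1 (adjusted p = 0.0581) or LPS library 1 (adjusted p = 0.088). It rose with S14 at 18 h by TMM (0.67 ± 0.093, adjusted p = 3.67e-07, -0.23 on the spike-in scale and 0.11 on it without untreated library 4). Its end overlaps Spsb2 on the opposite strand, which gave -0.18 with LPS at 18 h and -2.27 at 3 h.

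The lower enzymes of the pathway all rose with LPS at 18 h. Gapdh, the triose phosphate dehydrogenase, was counted at 3.31 ± 1.49 CPM in S14 libraries, 8.53 ± 2.41 CPM in LPS libraries and 1.86 ± 0.443 CPM in untreated libraries at 18 h (SD, n = 4). At 3 h Gapdh averaged 6.27 ± 1.16 CPM in S14 libraries, 4.76 ± 1.66 CPM in LPS libraries and 5.71 ± 1.94 CPM in untreated libraries. It rose with LPS at 18 h (2.17 ± 0.36, adjusted p = 1.67e-06) and missed the threshold with S14 (0.81 ± 0.39, adjusted p = 0.127). Its reads over all libraries numbered 546 in the count table and 13922 in the second deposited table, so its level is uncertain. The 4 annotated near-identical copies of Gapdh held 36 reads in the count table and 32 in the second. With the reads of the second table Gapdh averaged 113 ± 13.3 CPM in S14 libraries, 228 ± 89.7 CPM in LPS libraries and 29.9 ± 12.0 CPM in untreated libraries at 18 h. There, by TMM, S14 raised it by 1.92 on the log2 scale (adjusted p = 0.000246) and LPS by 2.94 (adjusted p = 3.03e-07). At 3 h LPS gave -0.27 ± 0.35, adjusted p = 0.54 in the count table, and in the second table it lowered Gapdh (-1.32, adjusted p = 0.00157). Iffo1, which overlaps the end of Gapdh on the opposite strand and had 1755 reads, fell with LPS at 18 h (-0.49, adjusted p = 0.028) and at 3 h (-1.33, adjusted p = 4.96e-06). Pgk1, phosphoglycerate kinase, averaged 2.25 ± 1.00 CPM in S14 libraries, 6.72 ± 0.737 CPM in LPS libraries and 0.769 ± 1.04 CPM in untreated libraries at 18 h. At 3 h the means of Pgk1 were 3.85 ± 1.23 CPM in S14 libraries, 2.20 ± 1.06 CPM in LPS libraries and 3.86 ± 0.456 CPM in untreated libraries. At 18 h it rose with LPS (3.18 ± 0.52, adjusted p = 1.63e-06) and, by TMM, with S14 (1.62 ± 0.56, adjusted p = 0.0308). The S14 call was lost without untreated library 2, 3 or 4 or S14 library 1 or 3 (adjusted p from 0.0593 to 0.14). Pgk1 was also not called higher with S14 on the spike-in scale. Its reads numbered 348 in the count table and 651 in the second. With the latter S14 gave 1.72 (adjusted p = 0.00378) and LPS 2.91 (adjusted p = 2.46e-07) at 18 h by TMM.

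Pgam1, phosphoglycerate mutase, had 18 h levels of 23.3, 31.5, 31.2 and 31.9 CPM in S14 libraries, 73.3, 63.9, 59.8 and 63.1 CPM in LPS libraries and 14.5, 19.9, 16.4 and 28.0 CPM in untreated libraries. At 3 h Pgam1 was at 40.1, 51.3, 42.4 and 40.0 CPM in S14 libraries, 47.3, 38.7, 34.2 and 42.6 CPM in LPS libraries and 39.8, 38.3, 30.1 and 34.5 CPM in untreated libraries. LPS stood clear at 18 h (1.72 ± 0.15, adjusted p = 4.72e-13), and S14 raised Pgam1 there by TMM (0.58 ± 0.16, adjusted p = 0.00499, -0.56 on the spike-in scale and 0.32 on it without untreated library 4) with ranges that overlapped. At 3 h no difference was called (0.19 with LPS, adjusted p = 0.301, and 0.28 with S14, adjusted p = 0.245).

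Eno1 encodes enolase. At 18 h Eno1 was at 21.7, 17.3, 28.1 and 21.3 CPM in S14 libraries, 40.1, 40.8, 50.4 and 41.7 CPM in LPS libraries and 13.4, 10.3, 10.6 and 9.80 CPM in untreated libraries. At 3 h Eno1 was at 32.8, 40.9, 34.4 and 40.9 CPM in S14 libraries, 18.7, 18.9, 24.0 and 21.8 CPM in LPS libraries and 37.9, 40.3, 36.3 and 39.6 CPM in untreated libraries. LPS libraries were highest at 18 h and lowest at 3 h, without overlap at either time. LPS raised it at 18 h (1.98 ± 0.15, adjusted p = 8.17e-15) and lowered it at 3 h (-0.88 ± 0.15, adjusted p = 2.81e-06). S14 raised it by TMM at 18 h (1.01 ± 0.16, adjusted p = 3.87e-06), where it was not called higher on the spike-in scale. Its value with S14 at 3 h missed the threshold (-0.046 ± 0.14, adjusted p = 0.899). Eno1 has a near-identical copy, Eno1b, with 11 reads over all libraries.

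Pkm encodes the muscle-type forms of pyruvate kinase, the last step to pyruvate. At 18 h Pkm was at 1620.0, 1626, 1761 and 1801 CPM in S14 libraries, 3301, 3136, 3286 and 2745 CPM in LPS libraries and 1023, 967, 943 and 994 CPM in untreated libraries. At 3 h Pkm was at 1804, 1891, 1606 and 1685 CPM in S14 libraries, 1353, 1513, 1492 and 1528 CPM in LPS libraries and 1886, 1874, 1921 and 1774 CPM in untreated libraries. The 3 groups were ordered LPS, S14, untreated at 18 h with no overlap. LPS raised Pkm at 18 h (1.67 ± 0.072, adjusted p = 4.92e-23) and lowered it at 3 h by TMM (-0.34 ± 0.071, adjusted p = 7.02e-05). S14 raised it at 18 h by TMM (0.79 ± 0.071, adjusted p = 1.12e-11, -0.21 on the spike-in scale and 0.33 on it without untreated library 4) but not by the test at 3 h (-0.094 ± 0.071, adjusted p = 0.462), and the difference between the times was called (0.89, adjusted p = 7.7e-09, -0.23 on the spike-in scale and 0.31 on it without untreated 18 h library 4).

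Ldha encodes the lactate dehydrogenase subunit that favours lactate formation. At 18 h Ldha was at 609, 621, 615 and 597 CPM in S14 libraries, 1371, 1093, 1432 and 1501 CPM in LPS libraries and 459, 473, 422 and 572 CPM in untreated libraries. At 3 h Ldha was at 976, 1043, 969 and 1043 CPM in S14 libraries, 1208, 1087, 1149 and 1041 CPM in LPS libraries and 994, 894, 914 and 927 CPM in untreated libraries. It was the only one of the enzymes from Gpi1 to Ldha, apart from the phosphofructokinases, that LPS raised at 3 h (0.27 ± 0.083, adjusted p = 0.00599). There its libraries lay above every untreated library and overlapped those of S14. At 18 h LPS gave a larger log2 fold change (1.49 ± 0.085, adjusted p = 5e-19), and S14 raised Ldha by TMM (0.34 ± 0.083, adjusted p = 0.00176, -0.74 on the spike-in scale and -0.034 on it without untreated library 4). Its LPS means were 1349 CPM at 18 h and 1121 CPM at 3 h, and its untreated means 482 CPM and 932 CPM.

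The largest change with LPS at 18 h was in Pfkfb3, whose product makes the fructose bisphosphate that activates phosphofructokinase. At 18 h Pfkfb3 was at 30.3, 29.8, 35.2 and 28.1 CPM in S14 libraries, 389, 342, 431 and 447 CPM in LPS libraries and 19.9, 12.2, 15.0 and 10.7 CPM in untreated libraries. At 3 h Pfkfb3 was at 37.0, 43.5, 46.0 and 46.6 CPM in S14 libraries, 279.9, 277, 332 and 381 CPM in LPS libraries and 16.2, 15.5, 18.5 and 12.0 CPM in untreated libraries. At both times all LPS libraries lay above all S14 libraries and these above all untreated libraries. LPS raised it at 18 h (4.81 ± 0.14, adjusted p = 3.61e-26) and at 3 h (4.34 ± 0.15, adjusted p = 3.71e-25). S14 raised it by TMM at 18 h (1.10 ± 0.15, adjusted p = 5.82e-07), where it was not called higher on the spike-in scale. It also rose with S14 at 3 h (1.47 ± 0.15, adjusted p = 9.56e-10), where it had the highest fold change of the members. Pfkfb4, a related enzyme, was at 36.5, 38.7, 33.7 and 25.6 CPM in S14 libraries, 29.7, 27.4, 27.1 and 31.2 CPM in LPS libraries and 31.0, 31.5, 24.6 and 40.6 CPM in untreated libraries at 18 h. At 3 h Pfkfb4 was at 20.2, 19.1, 20.7 and 23.6 CPM in S14 libraries, 5.95, 4.73, 7.77 and 7.53 CPM in LPS libraries and 24.96, 20.3, 21.6 and 20.7 CPM in untreated libraries. Only the LPS libraries at 3 h stood apart, below all others (-1.74 ± 0.20, adjusted p = 2.99e-10), and at 18 h the 3 groups overlapped (-0.14 with LPS, adjusted p = 0.456, and 0.081 with S14, adjusted p = 0.752, -1.03 on the spike-in scale and -0.26 on it without untreated library 4).

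**Figure D3:**
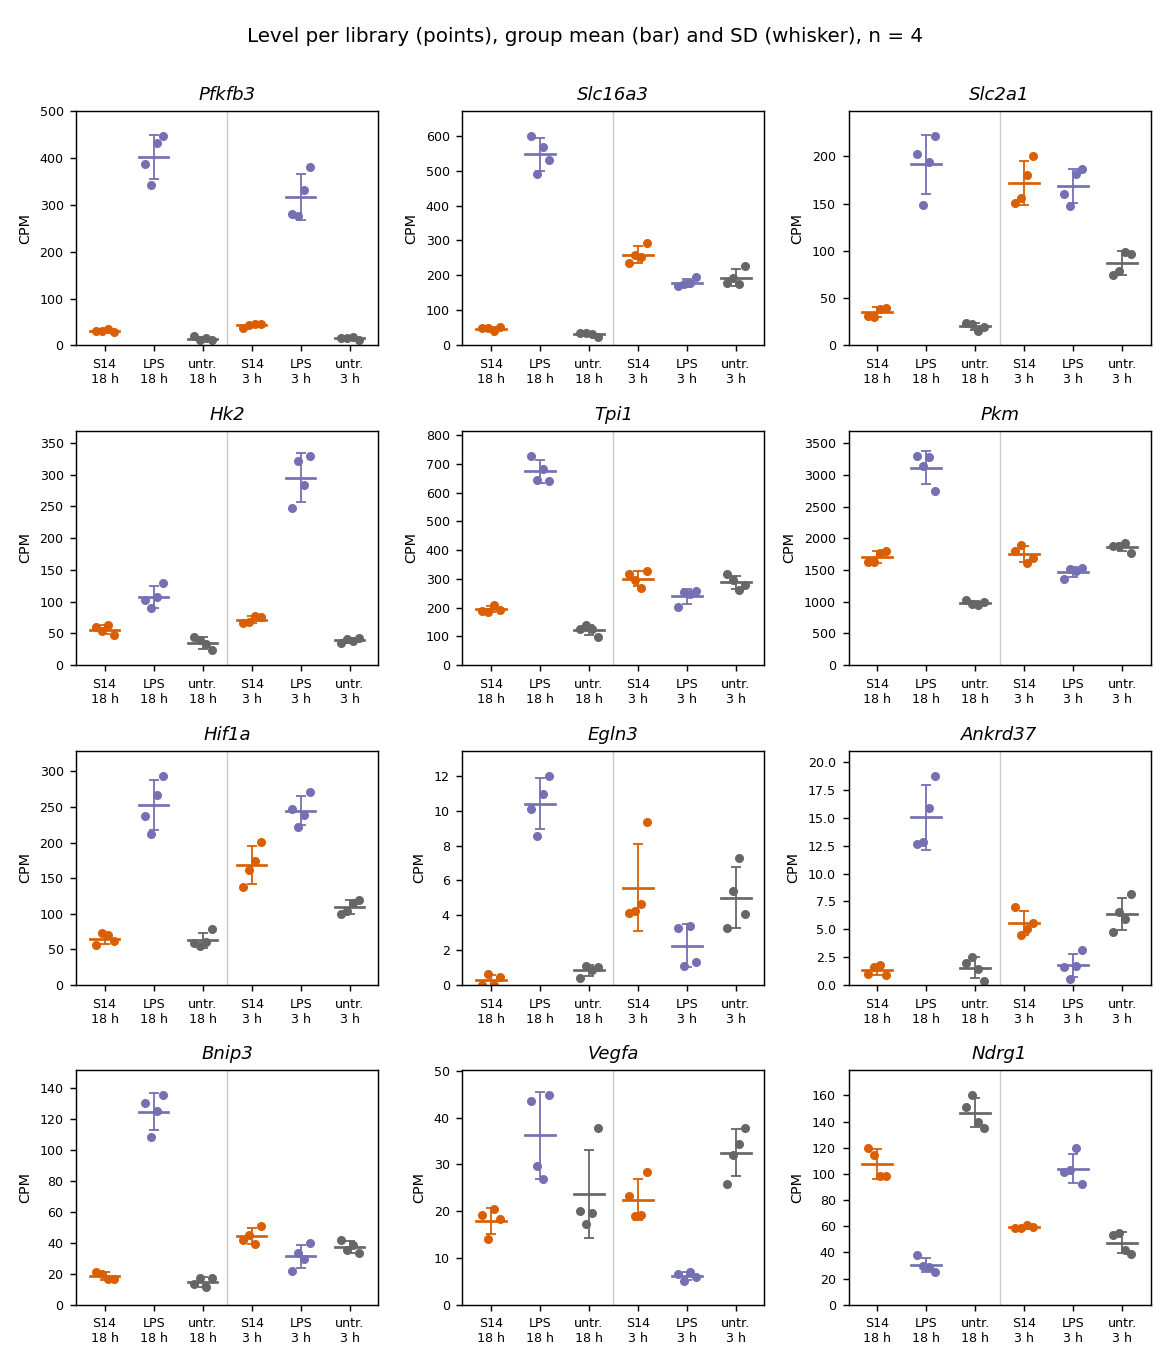
Each panel gives the level in CPM (vertical axis) of 1 member in the 24 libraries (points) by group, with the group mean as a bar and the SD as whiskers (n = 4). Pfkfb3 is high with LPS at both times, Slc16a3, Bnip3 and Ankrd37 are high with LPS at 18 h, and Ndrg1 is lowest with LPS at 18 h.

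Hif1a, the oxygen-regulated subunit of HIF, was itself changed. At 18 h Hif1a was at 55.8, 73.1, 69.6 and 62.4 CPM in S14 libraries, 238, 212, 266 and 294 CPM in LPS libraries and 58.8, 54.7, 60.3 and 78.2 CPM in untreated libraries. At 3 h Hif1a was at 138, 162, 175 and 202 CPM in S14 libraries, 247, 222, 239 and 271 CPM in LPS libraries and 99.1, 104, 115 and 119.8 CPM in untreated libraries. The stimuli and untreated libraries did not overlap at 3 h, and at 18 h the LPS libraries stood clear. With LPS it rose at both times (2.01 ± 0.12, adjusted p = 3.9e-18 at 18 h, 1.16 ± 0.11, adjusted p = 1.24e-11 at 3 h). With S14 it rose at 3 h (0.63 ± 0.11, adjusted p = 3.72e-05) and not by the test at 18 h (0.050 ± 0.12, adjusted p = 0.802, -1.06 on the spike-in scale and -0.32 on it without untreated library 4), and the difference between the times was called (-0.58, adjusted p = 0.0101). These are transcript levels, and HIF protein is not analysed here.

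Of the hydroxylases that mark HIF for destruction, Egln3 is also a HIF target. At 18 h Egln3 was at 0, 0.617, 0 and 0.449 CPM in S14 libraries, 10.1, 8.56, 11.0 and 12.0 CPM in LPS libraries and 0.387, 1.11, 0.839 and 1.05 CPM in untreated libraries. At 3 h Egln3 was at 4.13, 4.23, 4.64 and 9.32 CPM in S14 libraries, 3.25, 1.11, 3.40 and 1.30 CPM in LPS libraries and 3.297, 5.40, 7.26 and 4.09 CPM in untreated libraries. LPS libraries at 18 h stood clear of the others, where S14 libraries held 0, 3, 0 and 2 reads. LPS raised it at 18 h (3.56 ± 0.45, adjusted p = 5.26e-09) and lowered it at 3 h (-1.13 ± 0.44, adjusted p = 0.0253), a call lost without untreated library 3 or LPS library 2 or 4 (adjusted p from 0.0836 to 0.11). At 3 h its LPS and untreated libraries overlapped. With S14 at 18 h it missed the threshold (-1.597 ± 0.73, adjusted p = 0.108). Egln1, the main oxygen sensor of most cells, averaged 28.1 ± 3.50 CPM in S14 libraries, 49.97 ± 10.2 CPM in LPS libraries and 28.8 ± 5.77 CPM in untreated libraries at 18 h (SD, n = 4). Its 3 h means were 43.9 ± 6.26 CPM in S14 libraries, 28.2 ± 1.85 CPM in LPS libraries and 43.3 ± 5.17 CPM in untreated libraries. It rose with LPS at 18 h (0.79 ± 0.15, adjusted p = 1.3e-05) and fell at 3 h (-0.62 ± 0.15, adjusted p = 0.0007).

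Among the HIF targets outside glycolysis, Bnip3, a receptor for the removal of mitochondria, had 18 h levels of 21.3, 20.2, 16.6 and 16.4 CPM in S14 libraries, 131, 108, 125 and 135 CPM in LPS libraries and 13.2, 17.4, 11.2 and 17.3 CPM in untreated libraries. Its 3 h levels were 41.9, 45.2, 39.6 and 51.2 CPM in S14 libraries, 21.6, 33.7, 29.9 and 40.0 CPM in LPS libraries and 42.1, 35.1, 39.0 and 33.5 CPM in untreated libraries. LPS raised Bnip3 at 18 h, clear of all other libraries (3.08 ± 0.15, adjusted p = 2.62e-21), and at 3 h its range overlapped the untreated one (-0.26 ± 0.15, adjusted p = 0.144). S14 values missed the threshold at 18 h (0.34 ± 0.16, adjusted p = 0.128) and at 3 h (0.25 ± 0.14, adjusted p = 0.295). Ankrd37, an ankyrin repeat protein known as a HIF target, had 18 h levels of 0.997, 1.65, 1.77 and 0.898 CPM in S14 libraries, 12.6, 12.8, 15.9 and 18.8 CPM in LPS libraries and 1.94, 2.53, 1.40 and 0.350 CPM in untreated libraries. At 3 h Ankrd37 was at 6.98, 4.47, 5.06 and 5.59 CPM in S14 libraries, 1.62, 0.557, 1.70 and 3.12 CPM in LPS libraries and 4.71, 6.53, 5.94 and 8.17 CPM in untreated libraries. With LPS it was the highest group at 18 h (3.25 ± 0.36, adjusted p = 2.96e-10) and the lowest at 3 h (-1.83 ± 0.40, adjusted p = 0.000163), and S14 libraries overlapped untreated ones at both times. The end of Ankrd37 overlaps Ufsp2 on the opposite strand, which gave 0.15 ± 0.11 with LPS at 18 h (adjusted p = 0.258) and fell with LPS at 3 h (-0.50, adjusted p = 0.000387).

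Vegfa, the growth factor of blood vessels, had 18 h levels of 19.1, 14.0, 20.4 and 18.4 CPM in S14 libraries, 43.6, 29.7, 26.9 and 44.8 CPM in LPS libraries and 20.1, 17.2, 19.6 and 37.8 CPM in untreated libraries. At 3 h Vegfa was at 23.3, 19.1, 19.2 and 28.3 CPM in S14 libraries, 6.49, 5.01, 7.04 and 5.97 CPM in LPS libraries and 25.9, 32.0, 34.3 and 37.8 CPM in untreated libraries. LPS lowered Vegfa at 3 h, below every other library of that time (-2.40 ± 0.24, adjusted p = 3.5e-11), and raised it at 18 h by TMM with ranges that overlapped (0.62 ± 0.20, adjusted p = 0.00699, -0.22 on the spike-in scale and 0.82 on it without untreated library 4). With only the groups compared in the fit, the adjusted p of that rise was 0.0573. S14 values missed the threshold at 18 h (-0.39 ± 0.20, adjusted p = 0.166) and at 3 h (-0.52 ± 0.20, adjusted p = 0.0751). Some edgeR alternatives called Vegfa lower with S14 at 3 h. These were no filter (adjusted p = 0.0306), only the groups compared (0.00664) and the replicate block (0.0203). Leaving out untreated library 1 or S14 library 4 also did so, and DESeq2 and the second table did not.

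Ndrg1, a stress gene induced by hypoxia in many cells, went against the list. At 18 h Ndrg1 was at 120.2, 115, 98.2 and 98.1 CPM in S14 libraries, 38.4, 29.7, 28.6 and 25.1 CPM in LPS libraries and 151, 160.0, 139.9 and 135 CPM in untreated libraries. At 3 h Ndrg1 was at 58.4, 58.8, 60.9 and 59.2 CPM in S14 libraries, 101, 103, 119.7 and 92.4 CPM in LPS libraries and 53.2, 55.2, 42.0 and 39.1 CPM in untreated libraries. At 18 h the 3 groups did not overlap and untreated libraries were the highest, while at 3 h the untreated libraries were the lowest. LPS lowered it at 18 h (-2.27 ± 0.12, adjusted p = 3.67e-20) and raised it at 3 h (1.13 ± 0.12, adjusted p = 2.64e-11). S14 lowered it at 18 h (-0.44 ± 0.11, adjusted p = 0.00167) and missed the threshold at 3 h (0.32 ± 0.12, adjusted p = 0.0578). Some alternatives called it higher with S14 at 3 h. These were DESeq2 (adjusted p = 0.0363), its size factors in edgeR (0.0408), only the groups compared (0.0191) and the replicate block (0.0245). Leaving out untreated library 1 or 2 also did so, and the fits with no filter or the second table did not. The differences between the times were called for LPS (-3.40, adjusted p = 7.68e-21) and for S14 (-0.77, adjusted p = 0.000468).

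P4ha1 and P4ha2 are catalytic subunits of the enzyme that hydroxylates collagen. P4ha1 stood at 18 h at 51.0, 37.9, 40.1 and 44.2 CPM in S14 libraries, 107, 100.4, 93.8 and 111 CPM in LPS libraries and 35.6, 31.5, 25.7 and 36.1 CPM in untreated libraries. At 3 h P4ha1 stood at 58.1, 55.3, 57.8 and 64.8 CPM in S14 libraries, 78.7, 95.8, 95.9 and 96.6 CPM in LPS libraries and 38.1, 48.9, 41.2 and 47.0 CPM in untreated libraries. It rose with LPS at 18 h (1.68 ± 0.12, adjusted p = 3.06e-16) and at 3 h (1.07 ± 0.12, adjusted p = 1.71e-10), and with S14 at 3 h (0.43 ± 0.12, adjusted p = 0.00733) and by TMM at 18 h (0.43 ± 0.12, adjusted p = 0.0061, -0.59 on the spike-in scale and 0.037 on it without untreated library 4), a call lost without S14 library 1 (adjusted p = 0.0513). Its groups did not overlap at either time. P4ha2 stood at 18 h at 1.59, 4.32, 1.33 and 3.82 CPM in S14 libraries, 11.7, 13.3, 10.1 and 7.86 CPM in LPS libraries and 2.52, 2.85, 3.08 and 2.80 CPM in untreated libraries. At 3 h P4ha2 stood at 10.1, 16.5, 11.8 and 9.66 CPM in S14 libraries, 6.76, 9.19, 11.2 and 9.35 CPM in LPS libraries and 11.3, 7.66, 10.3 and 7.92 CPM in untreated libraries. It rose with LPS at 18 h (1.91 ± 0.30, adjusted p = 5.03e-07), and the groups overlapped at 3 h (-0.027 ± 0.28, adjusted p = 0.94 with LPS, 0.36 ± 0.27, adjusted p = 0.453 with S14).

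Higd1a, a hypoxia-induced protein of the inner mitochondrial membrane, had 18 h levels of 4.98, 4.94, 6.20 and 6.74 CPM in S14 libraries, 11.5, 7.30, 9.40 and 12.2 CPM in LPS libraries and 3.68, 2.06, 3.22 and 2.63 CPM in untreated libraries. At 3 h Higd1a was at 12.1, 12.5, 10.1 and 12.2 CPM in S14 libraries, 10.55, 5.01, 12.4 and 7.01 CPM in LPS libraries and 10.6, 7.21, 12.1 and 12.3 CPM in untreated libraries. By TMM all treated libraries at 18 h lay above the untreated ones, with LPS (1.80 ± 0.28, adjusted p = 6.85e-07) and with S14 (0.98 ± 0.30, adjusted p = 0.0123). With only the groups compared in the fit, the adjusted p for S14 was 0.0528, and on the spike-in scale S14 was not called higher. Its reads numbered 888 in the count table and 3851 in the second, with which the change at 18 h was 1.82 with LPS and 0.91 with S14.

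Mif encodes macrophage migration inhibitory factor, a cytokine. At 18 h Mif was at 252, 253, 240.0 and 262 CPM in S14 libraries, 541, 421, 574 and 529 CPM in LPS libraries and 137, 133, 121 and 109.9 CPM in untreated libraries. At 3 h Mif was at 382, 441, 321 and 397 CPM in S14 libraries, 291, 331, 326 and 372 CPM in LPS libraries and 359, 359, 346 and 349 CPM in untreated libraries. By TMM the 3 groups did not overlap at 18 h, LPS highest and S14 between (2.04 ± 0.095, adjusted p = 4.55e-22 with LPS, 1.01 ± 0.093, adjusted p = 3.13e-11 with S14), while at 3 h neither differed from untreated by the test (-0.10 ± 0.091, adjusted p = 0.366 with LPS, 0.12 ± 0.091, adjusted p = 0.444 with S14). On the spike-in scale Mif was not called higher with S14 at 18 h. Ddit4, an inhibitor of the growth kinase mTOR complex, averaged 1.58 ± 1.08 CPM in S14 libraries, 5.64 ± 1.04 CPM in LPS libraries and 1.53 ± 0.555 CPM in untreated libraries at 18 h (SD, n = 4). Its means at 3 h were 5.56 ± 1.77 CPM in S14 libraries, 2.6 ± 1.31 CPM in LPS libraries and 5.09 ± 1.97 CPM in untreated libraries. Ddit4 rose with LPS at 18 h (1.87 ± 0.44, adjusted p = 0.000396). Pdk1, a kinase that inhibits pyruvate dehydrogenase, averaged 30.2 ± 4.55 CPM in S14 libraries, 35.3 ± 14.9 CPM in LPS libraries and 36.5 ± 4.195 CPM in untreated libraries at 18 h. At 3 h its means were 41.6 ± 6.03 CPM in S14 libraries, 50.6 ± 9.31 CPM in LPS libraries and 40.9 ± 0.894 CPM in untreated libraries. It was called in 0 of the 4 comparisons with untreated cells, its log2 fold changes running from -0.28 to 0.31.

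Isoforms of 1 step, and the transporters Slc2a1 and Slc2a6 of different membranes, took unequal parts in these changes. Since 3' reads do not give the amounts of different genes on 1 scale, the shares below compare groups. Pfkfb3 made up 48.1% ± 4.28 of the reads of Pfkfb3 and Pfkfb4 in S14 libraries at 18 h, 93.3% ± 0.669 in LPS libraries and 31.4% ± 8.67 in untreated libraries. At 3 h its share was 67.4% ± 2.26 in S14 libraries, 98% ± 0.255 in LPS libraries and 41.4% ± 4.18 in untreated libraries. Pfkl made up 24.1% ± 0.611 of phosphofructokinase reads in S14 libraries at 18 h, 56.8% ± 6.31 in LPS libraries and 19.4% ± 3.33 in untreated libraries. At 3 h Pfkp made up 57.5% ± 3.34 of them in S14 libraries, 74.6% ± 3.97 in LPS libraries and 65.2% ± 4.14 in untreated libraries. Hk2 made up 25.9% ± 1.36 of hexokinase reads in S14 libraries at 3 h, 42.3% ± 3.67 in LPS libraries and 15.9% ± 0.771 in untreated libraries, with ranges that did not overlap. At 18 h its share was 15.6% ± 1.59 with S14, 16.9% ± 3.82 with LPS and 14.3% ± 2.40 in untreated libraries, and the ranges overlapped. Slc2a1 made up 22.0% ± 3.48 of the reads of Slc2a1 and Slc2a6 with S14 at 18 h, 56.3% ± 4.62 with LPS and 16.5% ± 1.29 untreated. At 3 h its share was 40.8% ± 2.29 with S14, 21.4% ± 1.34 with LPS and 45.1% ± 4.93 untreated (SD, n = 4 for each share). These shares were not tested.

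**Figure D4:**
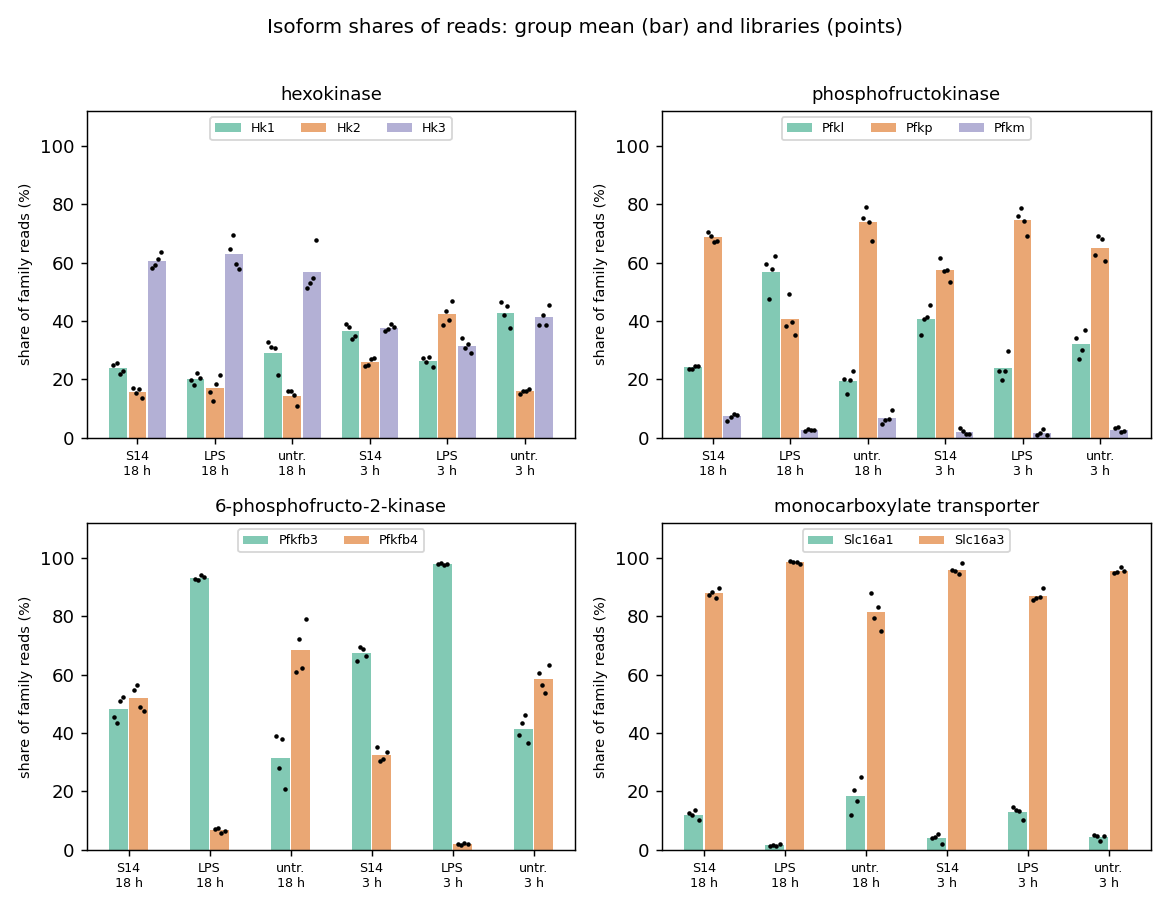
Bars give the mean share (vertical axis, percent) of each isoform in the reads of its family by group (n = 4) and points the libraries, for 4 families. LPS libraries at 18 h show Pfkl at 56.8% and Pfkfb3 at 93.3%, and LPS libraries at 3 h show Hk2 at 42.3%.

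S14 and LPS differed on most members at 18 h. There 28 members were lower with S14 than with LPS and 1, Ndrg1, was higher (87.9%, against 42.6% of all genes, 21.3% in each direction), with 0 higher and 17 lower among the glycolysis genes and 1 higher and 11 lower among the others. The widest gap was in Egln3 (-5.16 ± 0.56, adjusted p = 2.78e-10), which had few reads with S14, followed by Pfkfb3 (-3.70 ± 0.13, adjusted p = 4.35e-23) and Slc16a3 (-3.51 ± 0.11, adjusted p = 8.66e-28). Spike-in scaling gave 27 lower and 1 higher. At 3 h 14 members were higher with S14 than with LPS and 10 lower (72.7%, against 46.1% of all genes, 23.7% higher and 22.4% lower). The higher ones included Vegfa (1.87 ± 0.25, adjusted p = 3.31e-08), Pfkfb4 (1.68 ± 0.19, adjusted p = 1.05e-09) and Ankrd37 (1.63 ± 0.41, adjusted p = 0.000914), and the lower ones Pfkfb3 (-2.87 ± 0.13, adjusted p = 8.35e-21), Hk2 (-2.04 ± 0.13, adjusted p = 2.92e-16) and Slc16a1 (-1.33 ± 0.24, adjusted p = 9.9e-06). Spike-in scaling gave 3 higher and 8 lower. For Slc2a1 the difference at 3 h missed the threshold (0.030 ± 0.12, adjusted p = 0.864).

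The untreated cells themselves changed between the times, and each comparison above is set against untreated cells of its own time. In untreated cells 3 members were higher at 18 h than at 3 h and 24 were lower (81.8%, against 38.8% of all genes, 19.2% higher and 19.6% lower), with a median log2 fold change of -0.88, against -0.0075 for all genes. The largest falls were in Slc16a3 (-2.58 ± 0.11, adjusted p = 1.84e-22), Egln3 (-2.52 ± 0.47, adjusted p = 2.79e-05) and Pgk1 (-2.38 ± 0.54, adjusted p = 0.000467), and the 3 that rose were Ndrg1 (1.63 ± 0.11, adjusted p = 2.62e-15), Pfkfb4 (0.54 ± 0.16, adjusted p = 0.00561) and Hk3 (0.43 ± 0.10, adjusted p = 0.000458). Scaled to spike-in reads, 4 were higher and 9 lower, and without untreated library 4 on that scale 2 were higher and 15 lower. LPS at 18 h was the group with the highest mean for 14 of 20 glycolysis genes and 9 of 13 other HIF genes, and LPS at 3 h for 5 and 1. Responses were compared as signed log2 fold changes, so a higher value can also be a weaker fall. It can also go with a lower untreated level at 18 h. Hif1a averaged 253 and 245 CPM with LPS at 18 h and 3 h, and 63.0 and 109 CPM in untreated libraries. The LPS response differed between 18 h and 3 h for 30 members, higher at 18 h for 25 and lower for 5 (90.9%, against 51.2% of all genes, 25.1% higher and 26.1% lower). The lower ones were Slc2a6, Slc16a1, Hk2, Pfkp and Ndrg1. The S14 response differed for 10, higher for 7 and lower for 3 (30.3%, against 16.6% of all genes, 7.61% higher and 8.98% lower). On the spike-in scale the counts were 13 higher and 5 lower for LPS (21 and 5 without untreated library 4) and 0 higher and 8 lower for S14 (0 and 4).

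**Figure D5:**
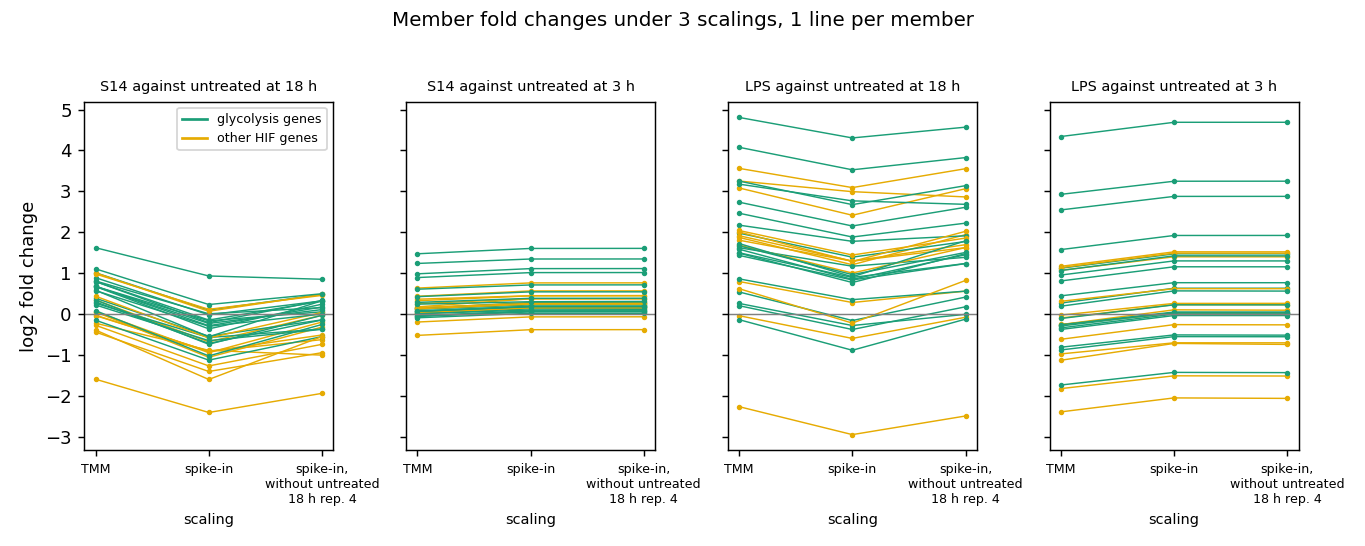
Each line is 1 member's log2 fold change (vertical axis) by TMM, by spike-in reads, and by spike-in reads without untreated library 4 at 18 h (horizontal axis), in 4 comparisons with untreated cells. With S14 at 18 h many lines cross 0 and 0 members are called higher on the spike-in scale, while with LPS at 18 h 22 are still called higher with all libraries and 25 without that library.

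The last 500 bases of 9 members (Slc2a1, Tpi1, Gapdh, Bnip3, Ankrd37, Hif1a, Pfkp, Hk3 and Ndrg1) overlap a gene annotated on the opposite strand, and the labels do not state the strand setting of the read counting. The partners of Slc2a1, Bnip3 and Ndrg1 had 0 reads, that of Hif1a had 24 and that of Hk3 had 43 over all libraries. Mif and Bnip3 each have 1 near-identical copy, with 60 and 16 reads. The part of these genes in the results was not tested.

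Other genes of the same pathways were read from further lists, by TMM alone. Of 17 further glycolysis isoforms and transporters tested, 4 rose and 4 fell with LPS at 18 h (47.1%, against 55.6% of all genes), and 0 rose and 5 fell at 3 h (29.4%, against 55.5%). The lactate transporter Slc16a7 fell with LPS at 18 h (log2 fold change -1.99 ± 0.22, adjusted p = 1.2e-10) and Eno2, a further enolase, rose (1.57 ± 0.27, adjusted p = 3.43e-06). With S14 1 of the 17 rose and 1 fell at 18 h (11.8%, against 24.3%), and 0 rose and 1 fell at 3 h (5.88%, against 15.2%). Of 9 further genes of HIF and oxygen sensing, 5 rose and 0 fell with LPS at 18 h (55.6%, against 55.6% of all genes), among them Elob (0.82 ± 0.073, adjusted p = 7.52e-13), and 4 rose and 0 fell with S14 at 18 h by TMM (44.4%, against 24.3%). Of 25 further HIF targets, 12 rose and 5 fell with LPS at 18 h (68%, against 55.6% of all genes) and 7 rose and 7 fell at 3 h (56%, against 55.5%). Hilpda, a protein of lipid droplets, averaged 74.8 ± 10.2 CPM in LPS libraries, against 13.6 ± 3.35 CPM in untreated libraries at 18 h (SD, n = 4; log2 fold change 2.46 ± 0.17, adjusted p = 3.53e-16). With S14 the counts of these 25 were 2 higher and 6 lower at 18 h (32%, against 24.3%), where Bhlhe40, a transcriptional repressor, fell (-1.04 ± 0.23, adjusted p = 0.000766), and 7 higher and 1 lower at 3 h (32%, against 15.2%), where Lox, which links collagen fibres, rose (2.68 ± 0.32, adjusted p = 7.53e-09).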

How the data were processed

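Messenger RNA of 24 macrophage cultures was read from the 3' end (QuantSeq) and the deposited count table holds whole-number read counts per gene made by the authors. The submitters' processing notes name cutadapt 1.18, STAR 2.6.1a, featureCounts 1.6.4, DESeq2 and the build GRCm38; the labels do not state their settings. A second deposited table, normalized by the authors, holds signal values (gene counts divided by size factors), from which whole reads were recovered (to within 8.6e-10 of a read) for an alternative, which called 2754 of 11406 genes with S14 and 6384 with LPS at 18 h; the spike-in reads also come from the deposited files.

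Untreated libraries are headed Veh in the count table. Members were matched by symbol. Members and lists were chosen with earlier results of these data known, and the genes overlapping members were named after their values were seen. Rows of ribosomal RNA, 0.132% to 0.469% of reads, were left out. Genes were kept by filterByExpr (minimum count 10, minimum total 15), which left 11717. One model over the 6 groups was fitted with edgeR 4.0.16 (TMM, quasi-likelihood test, two-sided, 18 residual degrees of freedom) in R 4.3.3, with Benjamini-Hochberg adjustment over all genes tested. Responses at 18 h and 3 h were compared by interaction contrasts. The fit was tested on simulated data. Values in every library are given for members called with an absolute log2 fold change of 1 or more in a comparison with untreated cells and at least 10 CPM in the higher group; the remaining members have group means. Of other genes, those with the largest called changes of each list are named.

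Alternatives were DESeq2 1.42.0, its size factors, no filter, the second table, only the groups compared, a replicate block, each library left out, and scaling to spike-in reads, also without untreated library 4 at 18 h, the last chosen after seeing the data. The check of their deviations did not settle whether same-numbered libraries pair. Promoters are RefSeq's, and copies were found with blastn 2.17.0 (last 200 bases, 95% identity, 150 bases aligned).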

Additional observations from a re-analysis of the deposited data

Results flagged for a closer look

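In each group of 4 libraries, a library was singled out where its gap to the nearest other took more of the range than Dixon's 95% limit for 4 values allows. Of 198 member and group pairs 7 passed, and chance alone passes about 1 in 20. Slc16a1 was at 11.6 CPM in LPS library 4 at 18 h, against 7.03 to 7.55 CPM in the other 3. Hk1 was at 94.7 CPM in untreated library 4 at 3 h, against 107 to 108 CPM in the other 3. Gapdh was at 7.24 CPM in LPS library 2 at 3 h, against 3.79 to 4.13 CPM in the other 3. These 3 came from different libraries. Pgam1 was at 23.3 CPM in S14 library 1 at 18 h, against 31.2 to 31.9 CPM in the other 3. Egln3 was at 9.32 CPM in S14 library 4 at 3 h, against 4.13 to 4.64 CPM in the other 3. P4ha1 was at 78.7 CPM in LPS library 1 at 3 h, against 95.8 to 96.6 CPM in the other 3. Higd1a was at 10.1 CPM in S14 library 3 at 3 h, against 12.1 to 12.5 CPM in the other 3.

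The response to S14 differed between 18 h and 3 h for 10 members in the interaction test of edgeR (adjusted p from 7.7e-09 to 0.017). As a signed log2 fold change it was higher at 18 h by TMM for Hk3 (0.62), Gpi1 (0.38), Aldoa (0.81), Tpi1 (0.61), Eno1 (1.05), Pkm (0.89) and Mif (0.88). It was lower at 18 h for Slc2a6 (-0.94), Hif1a (-0.58) and Ndrg1 (-0.77). On the spike-in scale the difference took the other sign for Hk3 (-0.53), Gpi1 (-0.67), Aldoa (-0.20), Tpi1 (-0.41), Pkm (-0.23) and Mif (-0.17), and without untreated library 4 for Gpi1 (-0.27) and Tpi1 (-0.073) alone of these.

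The response to LPS differed between the times for 30 members (adjusted p from 1.27e-25 to 0.00357). As a signed value it was higher at 18 h for Slc2a1 (2.30), Slc16a3 (4.19), Hk3 (0.47), Gpi1 (1.81), Pfkl (2.29), Aldoa (1.79), Tpi1 (2.73), Gapdh (2.44), Pgk1 (3.99), Pgam1 (1.53), Eno1 (2.86), Pkm (2.01), Ldha (1.22), Pfkfb4 (1.6), Hif1a (0.84), Egln1 (1.41), Egln3 (4.69), Vegfa (3.01), Bnip3 (3.34), Ankrd37 (5.08), P4ha1 (0.61), P4ha2 (1.94), Higd1a (2.06), Ddit4 (2.85) and Mif (2.14). It was lower at 18 h for Slc2a6 (-2.01), Slc16a1 (-1.37), Hk2 (-1.31), Pfkp (-0.81) and Ndrg1 (-3.40). Some of these are changes of direction or weaker falls. Pfkfb4 went from -1.74 at 3 h to -0.14 at 18 h, Vegfa from -2.4 to 0.618 and Ndrg1 from 1.13 to -2.27. On the spike-in scale the sign was the other for Hk3 (-0.63), Hif1a (-0.24) and P4ha1 (-0.40), and without untreated library 4 for Hk3 (-0.022) alone of these.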

How the results depend on the processing

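DESeq2, its size factors, no filter, the second table and a fit of only the groups compared kept every count of called members within 1.5 times the main count and reversed 0 values. Leaving out single libraries gave 8 to 10 called members with S14 at 3 h, 22 to 24 with LPS at 3 h, 17 to 20 with S14 at 18 h and 29 to 30 with LPS at 18 h. It gave 21 to 24 for S14 against LPS at 3 h, 28 to 30 at 18 h, 27 to 28 for untreated cells over time, 10 to 12 for the S14 response and 30 to 31 for the LPS response between times, with 22 calls gained and 31 lost over all fits and 0 reversed. Whether replicate numbers pair the libraries was not settled. Correlations of deviations between same-numbered libraries were low (from -0.0255 to 0.143, 1 of 28 over 0.1), yet 17 of 24 libraries correlated best with their own number. With the replicate block 10, 23, 20 and 30 members were called with S14 and LPS at 3 h and S14 and LPS at 18 h. With that block 5 calls were gained and 0 lost.

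Scaling to spike-in reads moved more, since it shifts all genes. The called members were 3 with S14 and 14 with LPS at 3 h, 11 with S14 at 18 h, 11 for S14 against LPS at 3 h, 13 for untreated cells over time and 18 for the LPS response between times. Without untreated library 4 they were 2 with S14 at 18 h, 13 for S14 against LPS at 3 h, 17 for untreated cells over time and 4 for the S14 response between times. Log2 fold changes called on either scale that took the other sign on the spike-in scale were, with LPS at 3 h, Aldoa 0.033, Tpi1 0.047; with S14 at 18 h, Slc2a1 -0.15, Slc2a6 -0.72, Slc16a3 -0.30, Hk2 -0.17, Hk3 -0.36, Gpi1 -0.55, Pfkl -0.29, Pfkp -0.65, Aldoa -0.021, Tpi1 -0.23, Pgam1 -0.56, Pkm -0.21, Ldha -0.74, Pfkfb4 -1.03, Hif1a -1.06, P4ha1 -0.59; with LPS at 18 h, Slc2a6 -0.16, Pfkp -0.28, Vegfa -0.22. For untreated cells over time they were Slc2a6 0.80, Hk1 0.14, Gpi1 0.038, Pgam1 0.13, Hif1a 0.16, Egln1 0.16, P4ha1 0.45. For the S14 response between times they were Hk3 -0.53, Gpi1 -0.67, Aldoa -0.20, Tpi1 -0.41, Pkm -0.23, Mif -0.17, and for the LPS response Hk3 -0.63, Hif1a -0.24, P4ha1 -0.40. Without untreated library 4 they were, with LPS at 3 h, Aldoa 0.033, Tpi1 0.047; with S14 at 18 h, Slc2a6 -0.15, Slc16a3 -0.0033, Gpi1 -0.14, Ldha -0.034; with LPS at 18 h, Pfkp -0.010; for the S14 response, Gpi1 -0.27, Tpi1 -0.073; and for the LPS response, Hk3 -0.022. The spike-in totals of 705 to 2588 reads limit that scale, and members with few reads (Pgk1, Egln3, Ddit4, Gapdh and Ankrd37) are the least precise.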

Other observations

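Of the 10 genes of the pentose phosphate pathway, which branches from glucose phosphate and supplies NADPH and ribose, 5 rose and 5 fell with LPS at 18 h (100%, against 55.6% of all genes), and 4 rose and 0 fell with S14 at 18 h by TMM (40%, against 24.3%). G6pdx, the entry enzyme, averaged 355 ± 21.6 CPM in LPS libraries, against 145 ± 18.2 CPM in untreated libraries at 18 h (SD, n = 4; log2 fold change 1.29 ± 0.090, adjusted p = 3.49e-16). Prps1, which makes the ribose donor of nucleotide synthesis, fell there (-1.62 ± 0.27, adjusted p = 2.79e-06). Taldo1, transaldolase, averaged 478 ± 44.0 CPM in S14 libraries, against 281 ± 14.4 CPM in untreated libraries at 18 h by TMM (0.76 ± 0.072, adjusted p = 5.06e-11).

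Of 11 genes of glycogen and gluconeogenesis tested, 7 rose and 1 fell with LPS at 18 h (72.7%, against 55.6% of all genes), and 1 rose and 4 fell at 3 h (45.5%, against 55.5%). Gys1, glycogen synthase, averaged 93.2 ± 13.5 CPM in LPS libraries, against 15.8 ± 3.34 CPM in untreated libraries at 18 h (2.57 ± 0.16, adjusted p = 3.71e-18). At 3 h it averaged 9.21 ± 1.21 CPM in LPS libraries, against 23.1 ± 4.22 CPM in untreated libraries (-1.32 ± 0.19, adjusted p = 6.39e-08). Of 12 genes of pyruvate entry into mitochondria, 2 rose and 2 fell with LPS at 18 h (33.3%, against 55.6% of all genes), and 4 rose and 3 fell at 3 h (58.3%, against 55.5%). Pdk3, a kinase that inhibits pyruvate dehydrogenase, rose at 18 h (1.605 ± 0.20, adjusted p = 4.58e-09) and at 3 h (1.10 ± 0.19, adjusted p = 4.81e-06), while Pdp2, a phosphatase of that enzyme, fell at 18 h (-1.02 ± 0.17, adjusted p = 1.78e-06) and at 3 h (-1.15 ± 0.18, adjusted p = 4.18e-07).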
